A study of Mus musculus with 14 samples.

Results

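The genes described here act at the G1/S boundary of the cell cycle and in DNA replication. They were chosen by name, as a list of 38 genes known for these roles. Of these, 36 were measured on the array, out of 8251 genes that had a probe set annotated to a single symbol. Tyms and Pole were not analysed here: the 2 probe sets annotated to Tyms also carry the symbol Tyms-ps, and none was used for Pole. A gene with several probe sets was represented by the one with the highest mean over all arrays.

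RNA from dissociated mouse cerebellum was hybridised to 14 arrays, 1 per sample. Granule cell precursors came from patched+/- pups aged 7 days (GCP, n = 4), pretumor cells from patched mutants aged 6 weeks (n = 5), and tumor cells from patched mutants aged 10 to 25 weeks with signs of medulloblastoma (n = 5). No group is wild type, and the patched mice that the labels describe are heterozygous. Per the labels, the line was kept by breeding with 129X1/SvJ mice, cells came from the interface of a Percoll gradient, and they were not sorted, so each sample is a mixture. A Math1-GFP/patched+/- line is described too, without a statement that it gave these cells. Age and stage changed together and cannot be told apart. Nothing in the labels ties each sample to its own animal or animals; the tests therefore reflect variation among these 14 samples, and some of it may be technical.

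Before a cell copies its DNA, the origin recognition complex, Cdc6 and Cdt1 load the ring of Mcm2, Mcm3, Mcm4, Mcm5, Mcm6 and Mcm7 onto origins, a step called licensing, and geminin (Gmnn) holds Cdt1 in check afterwards. Cyclin E and E2F factors open S phase, Cdc45 helps to switch the ring into an active helicase, and primase, DNA polymerases, the sliding clamp PCNA and its loader copy the strands. In the young cerebellum granule cell precursors divide under hedgehog signalling, and patched, the receptor that restrains this pathway, is the gene mutated here.

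Levels are log2 intensities per probe set, and levels of different genes are not compared, since probe sets differ in brightness. Intensities under 16, which is 4 on the log2 scale, were called the low band; 12 of the 36 genes had all 3 group means there, and 24 did not. Array medians ran from 4.11 to 4.39 on the linear scale. Within the GCP group the arrays resembled each other in pairs, GCP 1 with GCP 2 and GCP 3 with GCP 4, and the labels do not say whether the arrays of a pair share a source. Pretumor 3 and tumor 2 stood furthest from the rest of their groups, at 20.6 and 19.3 on an axis of shared deviations described further below. Among markers of the granule lineage, the transcription factor Zic1 was at 12.74 ± 0.11 (SD, n = 4) in GCP, 12.59 ± 0.16 (n = 5) in pretumor and 12.64 ± 0.21 (n = 5) in tumor samples, while Atoh1, the defining factor of granule cell precursors, stayed in the low band in all groups, at 1.95 ± 0.10, 1.90 ± 0.20 and 2.01 ± 0.17. Of the 12 markers of granule lineage precursors measured, 1 fell at both later stages, the transcription factor Pax6, from 10.54 ± 0.21 to 8.80 ± 0.75 and 8.31 ± 0.33 (adjusted p = 0.0108 and 0.00214), and 0 rose; the differences of the 12 ran from -1.75 to 1.43 and from -2.23 to 0.78.

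Pretumor and tumor samples were each set against GCP to ask how the replication genes stand at the later stages. The genes that rose belonged to licensing. In pretumor samples 3 of the 36 genes rose (Cdc6, Mcm3 and Mcm4) and 1 fell (Tk1), where 1.99% of all 8251 genes rose and 3.25% fell. All 4 are among the 24 genes above the low band, where the shares over all genes were 3.61% and 5.42%. In tumor samples 4 of the 36 rose (Cdc6, Mcm3, Mcm4 and Cdt1) and 0 fell, where 1.7% of all genes rose and 3.93% fell. Above the low band these shares were 3.65% and 6.78%. An unadjusted p under 0.05 was found for 8 of the 36 genes in pretumor samples, beside 1486 of all 8251, and for 11 of the 36 in tumor samples, beside 1484 of 8251. The median log2 difference of the 36 genes was 0.12 for pretumor and 0.16 for tumor samples, beside -0.01 and 0.00 over all genes. The gene lists were chosen with earlier results known, so these medians are descriptions and were not tested. In bulk samples a change in the share of dividing cells and a change in RNA per cell cannot be told apart.

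Cdc6, the loader that brings the MCM ring to the origin, changed most. It stood at 7.10, 6.79, 6.97 and 6.71 in GCP 1 to 4, at 7.85, 8.57, 8.76, 8.32 and 8.54 in pretumor 1 to 5, and at 7.61, 8.01, 8.06, 8.01 and 8.07 in tumor 1 to 5. Every pretumor and tumor array lay above every GCP array, with pretumor 1 and tumor 1 the lowest of their groups. The rise was 2.85-fold in pretumor samples (log2 difference 1.51, SE 0.17, adjusted p = 0.000393) and 2.08-fold in tumor samples (1.05, SE 0.17, adjusted p = 0.00349). The pretumor call held in all 26 alternative settings. The tumor call held in 25 and ended with GCP 3 and GCP 4 left out (adjusted p = 0.0604).

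Of the 6 subunits of the MCM ring, 4 lay above the low band, and all 4 had higher means at both later stages than in GCP. Mcm3 (probe set 160496_s_at) stood at 10.02, 9.81, 9.04 and 9.12 in GCP 1 to 4, at 10.22, 10.63, 10.35, 10.42 and 10.23 in pretumor samples, and at 10.17, 10.28, 10.02, 10.44 and 10.22 in tumor samples. Pretumor arrays lay above all GCP arrays; tumor 3 lay just above GCP 1, and both round to 10.02. It rose 1.83-fold in pretumor (adjusted p = 0.021) and 1.66-fold in tumor samples (adjusted p = 0.0483). The other Mcm3 probe set, 100062_at, also rose, by 0.76 (adjusted p = 0.0278) and 0.71 (adjusted p = 0.0381) on the log2 scale.

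Mcm4 stood at 7.80, 7.77, 7.27 and 7.16 in GCP 1 to 4, at 8.10, 8.46, 8.45, 8.08 and 8.32 in pretumor samples, and at 8.35, 8.24, 7.93, 8.55 and 8.32 in tumor samples. Neither later group overlapped GCP. It rose 1.72-fold in pretumor (adjusted p = 0.0163) and 1.71-fold in tumor samples (adjusted p = 0.0163). For Mcm3 and Mcm4 alike the GCP arrays split by pair, GCP 3 and GCP 4 being lower. With that pair left out the pretumor differences were 0.46 for Mcm3 (adjusted p = 0.148) and 0.50 for Mcm4 (adjusted p = 0.211), and the tumor differences were 0.31 (adjusted p = 0.396) and 0.49 (adjusted p = 0.22). Omitting GCP 3 or GCP 4 alone ended both Mcm4 calls (adjusted p = 0.0541 to 0.0586); the Mcm3 pretumor call also ended without pretumor 2 (adjusted p = 0.056 to 0.0706 for these 3 arrays). The Mcm3 pretumor call held in 17 of 26 alternatives and was also lost with values floored at 16 (adjusted p = 0.0518), with 2 groups fitted alone (0.0634) and with pretumor 3 and tumor 2 left out (0.0503). The Mcm4 calls held in 21 and 20 of 26. The Mcm3 tumor call held in 7 of 26 and ended without any 1 of 11 arrays, all but GCP 1, GCP 2 and tumor 3 (adjusted p = 0.059 to 0.155).

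Mcm7 differed by 0.70 in pretumor (95% interval 0.27 to 1.14, adjusted p = 0.0739) and by 0.60 in tumor samples (0.17 to 1.03, adjusted p = 0.132), so it did not pass the test. It did pass in pretumor samples under 3 of 26 alternatives, with only probe sets reaching 16 on at least 4 arrays tested (adjusted p = 0.033), without pretumor 3 (0.0447) and with pretumor 3 and tumor 2 left out (0.0456). Its GCP arrays ran from 7.34 to 8.02, and pretumor 3, at 7.95, and tumor 1 and tumor 2, at 7.94 and 7.95, fell inside that range. Mcm5 was spread widely, from 4.92 to 5.61 in GCP, 5.35 to 7.14 in pretumor and 4.98 to 6.49 in tumor samples, and its differences of 0.89 and 0.28 did not pass (adjusted p = 0.302 and 0.881). Mcm2 and Mcm6 had group means in the low band, of 2.94 to 3.40 and of 1.35 to 1.45, though Mcm2 reached 4.16 in tumor 4. The median level of the 4 MCM genes above the low band ran from 7.31 to 7.91 over the GCP arrays, from 8.17 to 8.50 over the pretumor arrays and from 8.05 to 8.60 over the tumor arrays.

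Cdt1, which works with Cdc6 to load the ring, stood at 7.81, 7.74, 7.77 and 7.47 in GCP 1 to 4, at 7.88, 7.99, 7.86, 7.87 and 7.90 in pretumor samples, and at 7.95, 8.40, 7.92, 8.29 and 8.07 in tumor samples. Both later groups lay above GCP. The tumor difference was 1.34-fold (log2 difference 0.43, SE 0.10, adjusted p = 0.0325) and passed the test; the pretumor difference of 0.20 did not (adjusted p = 0.368). This value comes from 161787_f_at, whose suffix marks probes that can match related sequences. Its other probe set, 94024_at, differed by 0.59 in tumor samples and did not pass (adjusted p = 0.261). The tumor call ended under 14 of 26 alternatives, among them leaving out GCP 2, GCP 3, GCP 4 or tumor 4 (adjusted p = 0.0638 to 0.106). Gmnn, the inhibitor of Cdt1, was at 6.53 ± 0.27, 6.37 ± 0.37 and 6.48 ± 0.42 in the 3 groups, with differences from GCP of -0.16 (95% interval -0.68 to 0.36) and -0.04 (-0.56 to 0.48). Orc1, the subunit of the origin recognition complex on the list, and Cdc45 stayed in the low band at means of 2.38 to 2.52 and 2.31 to 2.48. Over licensing as a whole, 10 of 11 genes had a higher mean than GCP at each later stage, beside 3599 and 4242 of all 8251 genes. This count includes 4 genes in the low band, where small differences mean little. Of its 7 genes above the low band, 6 were higher at each stage, beside 1458 and 1527 of 3129 over all genes. The median differences of these 7 were 0.78 and 0.60.

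**Figure D1:**
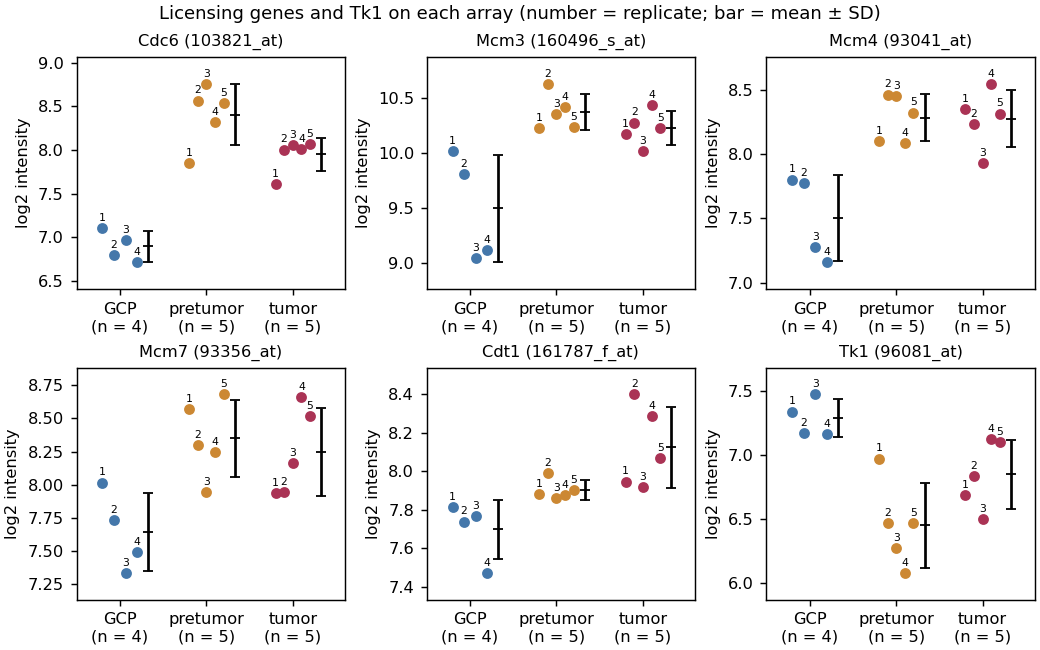
Log2 intensity (vertical axis) on each array for Cdc6, Mcm3, Mcm4, Mcm7, Cdt1 and Tk1 in GCP (n = 4), pretumor (n = 5) and tumor (n = 5) samples; numbers give the replicate and black bars the mean ± SD. Cdc6 lies between 7.85 and 8.76 in pretumor arrays against 6.71 to 7.10 in GCP, the GCP arrays split by pair for Mcm3 and Mcm4, and Tk1 is lowest in pretumor samples.

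The genes that copy the strands held no call. Of the 5 polymerase and primase genes measured, 2 were in the low band and 0 passed limma's test at either later stage. Over all genes 1.99% rose and 3.25% fell in pretumor samples, and 1.7% and 3.93% in tumor samples. At such shares, 0 calls among 5 genes does not set them apart from genes in general. Pola1 alone of the 5 had an unadjusted p under 0.05 at each stage. Prim1, the catalytic subunit of primase, was at 7.13, 6.82, 7.43 and 7.29 in GCP 1 to 4, at 6.74, 7.02, 7.64, 7.14 and 7.12 in pretumor samples, and at 7.60, 7.95, 6.81, 7.51 and 7.20 in tumor samples. The groups overlapped throughout (differences -0.03, 95% interval -0.53 to 0.47, and 0.25, -0.25 to 0.75). Prim2, the other primase subunit, differed by -0.37 and -0.43 (adjusted p = 0.427 and 0.337). Pola1, the catalytic subunit of the polymerase that extends primers, ran from 6.23 to 6.81 in GCP and from 6.85 to 7.27 in pretumor samples; these groups did not overlap, yet the difference of 0.55 did not pass (adjusted p = 0.302). Tumor 1, at 8.00, was the highest Pola1 value, and the tumor difference was 0.60 (adjusted p = 0.242). Pola2 and Pold1, subunits of polymerases alpha and delta, had all group means in the low band, though Pola2 lay above it on 3 arrays.

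Rpa1, Rpa2 and Rpa3 form the complex that coats single-stranded DNA. Rpa1 was at 8.56, 8.44, 7.91 and 8.34 in GCP 1 to 4, at 8.47, 8.92, 8.75, 8.51 and 8.66 in pretumor samples, and at 8.67, 8.42, 8.72, 8.65 and 8.54 in tumor samples. The groups overlapped, and the differences of 0.35 (95% interval 0.07 to 0.63, adjusted p = 0.183) and 0.29 (0.01 to 0.57, adjusted p = 0.305) did not pass. Rpa3 differed by 0.16 and 0.54 (adjusted p = 0.899 and 0.4), with tumor 2 highest at 9.37. Rpa2 had group means of 3.80 to 3.88, in the low band.

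The sliding clamp and its loader held no called gene. Pcna, the ring that holds polymerases on DNA, was at 10.59, 10.63, 11.08 and 10.74 in GCP 1 to 4, at 10.20, 10.55, 11.32, 10.52 and 10.51 in pretumor samples, and at 11.11, 11.27, 10.58, 10.88 and 10.66 in tumor samples. Pretumor 3 was the highest of all 14 arrays, pretumor 1 the lowest, and the groups overlapped. The differences were -0.14 (95% interval -0.60 to 0.32) and 0.14 (-0.32 to 0.60). Of the 6 genes of this step, Pcna and Rfc1 to Rfc5, 0 rose and 0 fell. Their log2 differences were -0.14 to 0.16 in pretumor and -0.07 to 0.16 in tumor samples, and 0 had an unadjusted p under 0.05 at either stage. All 6 are above the low band, where 3.61% of all genes rose and 5.42% fell in pretumor samples. In tumor samples these shares were 3.65% and 6.78%. At such shares, 0 calls among 6 genes is no departure from genes in general. Rfc1, the large subunit of the loader, differed by 0.04 (95% interval -0.31 to 0.40) and -0.07 (-0.43 to 0.29).

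Okazaki fragments are trimmed by Fen1 and sealed by Lig1. Fen1 was at 8.90, 8.59, 8.67 and 8.64 in GCP 1 to 4, at 8.00, 8.39, 8.55, 8.44 and 8.36 in pretumor samples, and at 8.53, 7.97, 7.94, 8.77 and 8.55 in tumor samples. Pretumor values lay below all GCP values, while tumor values overlapped them; the difference was -0.35 at both stages and did not pass (adjusted p = 0.373 and 0.382). Lig1 differed by 0.41 and 0.33 (adjusted p = 0.429 and 0.582), and its GCP arrays split by pair, at 6.96 and 6.83 against 5.99 and 6.04.

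Among the 3 genes of nucleotide supply, 1 fell, in pretumor samples. Tk1, the thymidine kinase of dividing cells, stood at 7.34, 7.17, 7.47 and 7.16 in GCP 1 to 4, at 6.97, 6.47, 6.27, 6.08 and 6.47 in pretumor samples, and at 6.68, 6.84, 6.50, 7.12 and 7.10 in tumor samples. All pretumor and tumor arrays lay below all GCP arrays. Tk1 fell 1.78-fold in pretumor samples (log2 difference -0.83, SE 0.17, adjusted p = 0.0185); the tumor difference of -0.44 did not pass (95% interval -0.82 to -0.06, adjusted p = 0.233). The pretumor call of Tk1 held in 19 of 26 alternatives. It was lost when GCP 1 (adjusted p = 0.0521) or GCP 3 (0.0631) was omitted, when pretumor 3 and tumor 2 were (0.0527), and when either GCP pair was (0.104 and 0.163). Rrm2, the regulated subunit of ribonucleotide reductase, was at 9.82 ± 0.18, 9.63 ± 0.30 and 9.54 ± 0.37, with differences of -0.19 (95% interval -0.62 to 0.24) and -0.28 (-0.71 to 0.15). Rrm1, its partner, had group means in the low band, at 3.47 to 3.51, and reached 4.08 in GCP 1. Tk1 has a second probe set, 161150_at, which was in the low band and did not pass. Of 18 other genes of nucleotide supply, 11 had a higher mean than GCP in pretumor and 12 in tumor samples, with median differences of 0.03 and 0.07.

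Ung, which removes uracil from DNA, was at 7.17, 6.77, 6.45 and 5.97 in GCP 1 to 4, at 7.30, 7.57, 7.03, 7.39 and 7.10 in pretumor samples, and at 6.63, 6.46, 6.16, 7.78 and 7.69 in tumor samples. The groups overlapped, with tumor 4 and tumor 5 the highest arrays, and its differences of 0.69 and 0.35 did not pass (adjusted p = 0.38 and 0.758). Of the G1/S control genes, E2f1, a transcription factor of S-phase genes, was at 4.72, 4.73, 4.79 and 4.77 in GCP 1 to 4, at 4.77, 4.78, 4.87, 4.82 and 4.76 in pretumor samples, and at 4.97, 4.64, 4.34, 5.12 and 4.64 in tumor samples. Its tumor arrays were spread most (SD 0.31, against 0.03 and 0.04), and its differences from GCP were 0.05 (95% interval -0.22 to 0.31) and -0.01 (-0.28 to 0.25). These values come from 161427_f_at, again a set that can match related sequences. On all 14 arrays the other E2f1 probe set, 102963_at, lay in the low band, so placing E2f1 above that band rests on the first. The cyclins Ccne1 and Ccne2 stayed in the low band. Chaf1a and Chaf1b, subunits of the complex that places histones on new DNA, were in the low band too, Chaf1b at 2.51 to 2.68 in GCP, 2.45 to 2.56 in pretumor and 2.33 to 2.90 in tumor samples. Low-band values lie near the lowest intensities of the table, so a change in these genes can go unseen.

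**Figure D2:**
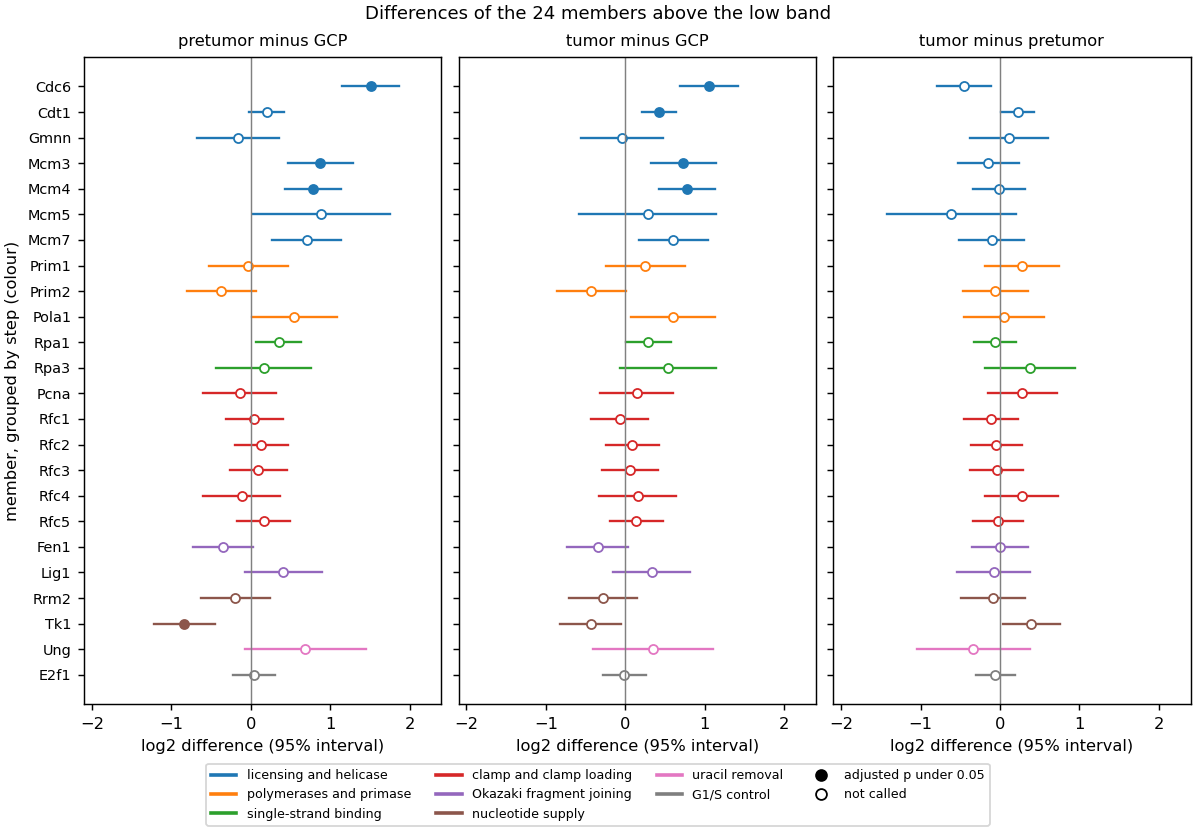
Log2 difference (horizontal axis, point with 95% interval, not adjusted for multiple tests) of the 24 genes above the low band in the 3 comparisons, grouped by step (colour). Filled points mark adjusted p under 0.05: Cdc6, Mcm3, Mcm4 and Tk1 in pretumor minus GCP, and Cdc6, Cdt1, Mcm3 and Mcm4 in tumor minus GCP; no point is filled in tumor minus pretumor.

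Groups that do not overlap were counted as well. In pretumor against GCP, 5 of the 36 genes lay wholly higher (Cdc6, Cdt1, Mcm3, Mcm4 and Pola1) and 2 wholly lower (Fen1 and Tk1), where 5.49% and 6.58% of all genes did, or 9.42% and 10.4% of those above the low band. In tumor against GCP, 4 lay wholly higher (Cdc6, Cdt1, Mcm3 and Mcm4) and 1 wholly lower (Tk1), where 3.81% and 5.72% of all genes did, or 6.23% and 9.23% of those above the low band. These comparisons share the GCP arrays, so the same GCP values stand behind both.

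Tumor samples were then compared with pretumor samples. Here 0 of the 36 genes rose and 0 fell under limma, where 0.133% of all genes rose and 0.957% fell (0.294% and 1.67% above the low band), rates at which fewer than 1 call would fall among 36 genes; 3 had an unadjusted p under 0.05, beside 1010 of all 8251 genes, which is a smaller share than among genes in general. Those 3, none of which passed, were Cdc6, 0.46 lower in tumor samples (log2 difference -0.46, 95% interval -0.80 to -0.11, adjusted p = 0.262), Cdt1, 0.22 higher (0.02 to 0.43, adjusted p = 0.394), and Tk1, 0.40 higher (0.04 to 0.76, adjusted p = 0.373). No gene of the 36 had groups that did not overlap, where 0.909% of all genes lay wholly higher and 1.84% wholly lower, or 1.05% and 2.84% of those above the low band. The intervals show how far a change could go unseen: for 22 of the 24 genes above the low band they lay within a 2-fold change in either direction. Mcm5 was the least bounded, at -0.61 with an interval of -1.42 to 0.20, and Mcm4 differed by -0.01 (-0.34 to 0.32). The median over the 36 genes was -0.01, beside 0.02 over all genes.

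Within groups the genes did not vary as 1 block. An axis was fitted to the deviations of 3105 other genes from their group means; it took 34.4% of their squared deviations, with pretumor 3 and tumor 2 at its upper end and tumor 5, at -14.5, at its lower end. The first GCP pair had positions of -10.2 and -5.82, the second pair 9.14 and 6.84. Over the 14 arrays, as a description, Pcna (r = 0.86), Rfc4 (0.81), Gmnn (0.77), Prim1 (0.75) and Rpa3 (0.58) rose along this axis. Mcm7 (r = -0.84), Rfc2 (-0.83), Rfc5 (-0.82), Lig1 (-0.76), Ung (-0.71) and Mcm5 (-0.62) fell along it. Thus subunits of the same clamp loader, Rfc4 and Rfc2, ran in opposite directions. The called genes were at 0.18 for Cdc6, -0.01 for Cdt1, -0.21 for Mcm4, -0.39 for Tk1 and -0.41 for Mcm3. Some genes that were not called followed it as little, among them Pola1 (0.09), E2f1 (0.02), Rrm2 (-0.09) and Fen1 (-0.22). A call depends on the spread within groups, so calls and this axis are not independent. Correlations beyond 0.5 in size were found for 45.8% of the 24 genes and 50.2% of the other genes, so the replication genes followed this axis about as often as genes in general.

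For the Gapdh control probe sets, signal near the 3' end relative to the 5' end, as a log2 ratio, was 0.46 and 0.56 in GCP 1 and GCP 2, -0.02 in GCP 3 and GCP 4, and 0.01 in pretumor 3, beside 0.19 to 1.08 in the other pretumor arrays. It was 0.15 in tumor 2 and 0.28 to 0.42 in the other tumor arrays. The same ratio for the actin control probe sets did not follow the GCP pairs, at 4.02, 4.27, 3.96 and 4.18 in GCP 1 to 4. It was 4.26 in pretumor 3, inside the range of its group (4.13 to 4.87), and 4.85 in tumor 2, the highest of its group. The part of RNA quality in the values of Mcm3, Mcm4 and Lig1 was not tested.

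**Figure D3:**
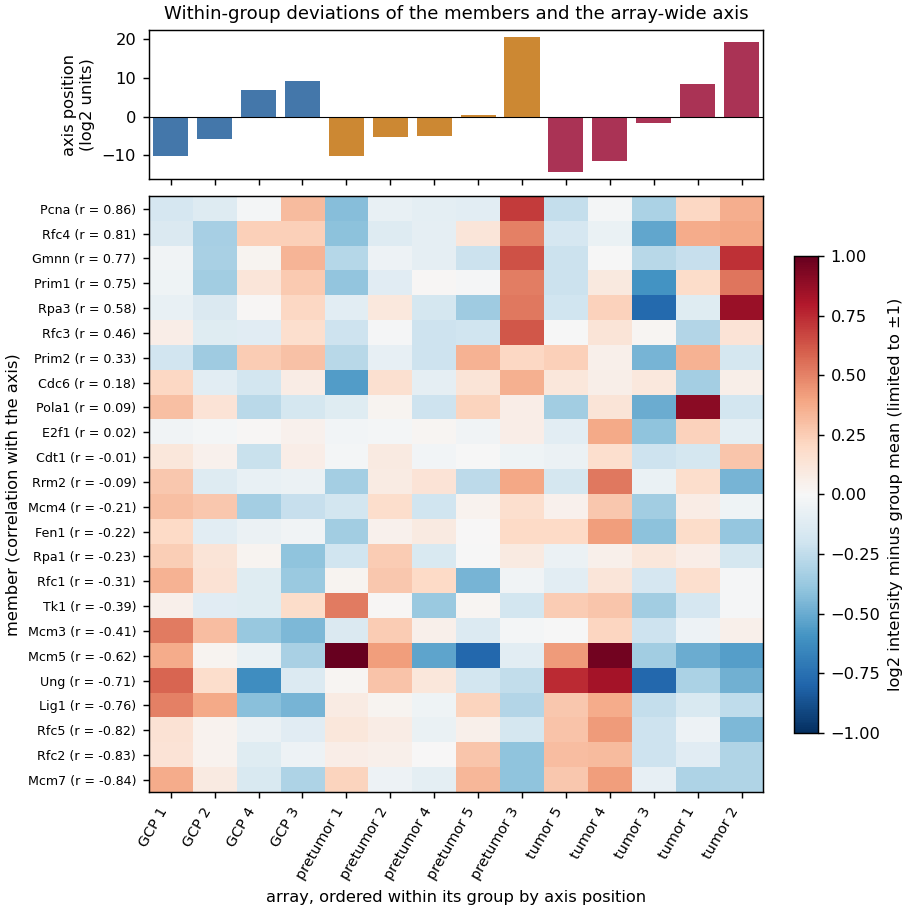
Upper panel: position of each array on the axis of shared within-group deviations (vertical axis, log2 units; colours give the groups). Lower panel: log2 intensity minus the group mean (colour) of the 24 genes above the low band, ordered by their correlation with the axis; Pcna, Rfc4, Gmnn and Prim1 are high and Mcm7, Rfc2 and Rfc5 low in pretumor 3.

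The promoters of the called genes are shown because 3 of the 5, Cdc6, Mcm3 and Cdt1, share a type of motif. Mcm4 had no window to search. The choice of genes did not use the motif, but it did use their roles at G1/S and in replication. The motif is therefore not independent of the choice. E2F factors, which drive S-phase genes, can bind 8-base sequences of the kind TTTCCCGC, TTTCGCGC, TTTGCCGC or TTTGGCGC. These were searched on both strands of the RefSeq windows of the assembly GRCm38.p6, which span 250 bases before to 50 after a gene's start; overlapping matches counted separately. Of the 36 measured genes, 31 matched a window by symbol; Prim2, Rfc2, Mcm4, Ccne2 and Gmnn did not. The windows below run 5′ to 3′ along the gene, with the E2F-type matches in capitals. They lie at chr11:98907901-98908200 (plus strand) for Cdc6, chr1:20820263-20820562 (minus strand) for Mcm3, chr8:122567765-122568064 (plus strand) for Cdt1 and chr11:117825965-117826264 (minus strand) for Tk1.
Cdc6: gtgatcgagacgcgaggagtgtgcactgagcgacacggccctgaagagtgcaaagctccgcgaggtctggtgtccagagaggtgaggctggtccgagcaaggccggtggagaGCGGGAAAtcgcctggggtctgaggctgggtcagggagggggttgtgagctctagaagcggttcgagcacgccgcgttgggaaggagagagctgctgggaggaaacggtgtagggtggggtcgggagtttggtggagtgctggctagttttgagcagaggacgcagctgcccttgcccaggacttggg
Mcm3: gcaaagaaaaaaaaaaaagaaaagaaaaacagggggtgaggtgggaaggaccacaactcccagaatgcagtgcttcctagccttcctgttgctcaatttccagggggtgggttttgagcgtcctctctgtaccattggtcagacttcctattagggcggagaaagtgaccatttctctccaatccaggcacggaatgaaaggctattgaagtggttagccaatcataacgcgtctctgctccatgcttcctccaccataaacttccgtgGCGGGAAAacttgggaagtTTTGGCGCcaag
Cdt1: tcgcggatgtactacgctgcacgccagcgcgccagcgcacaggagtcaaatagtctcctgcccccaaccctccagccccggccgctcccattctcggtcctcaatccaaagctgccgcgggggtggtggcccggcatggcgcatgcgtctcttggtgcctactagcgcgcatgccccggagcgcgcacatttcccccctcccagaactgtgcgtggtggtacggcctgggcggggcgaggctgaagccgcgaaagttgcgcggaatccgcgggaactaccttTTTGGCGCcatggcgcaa
Tk1: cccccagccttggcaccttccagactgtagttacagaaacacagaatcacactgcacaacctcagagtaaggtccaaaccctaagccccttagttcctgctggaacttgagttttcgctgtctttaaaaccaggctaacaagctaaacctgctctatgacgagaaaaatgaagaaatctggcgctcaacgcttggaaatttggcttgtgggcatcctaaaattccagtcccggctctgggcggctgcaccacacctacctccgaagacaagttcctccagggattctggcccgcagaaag

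Cdc6 held 1 match, TTTCCCGC on the opposite strand at bases 113 to 120 of its window. Mcm3 held 2, TTTCCCGC on the opposite strand at bases 270 to 277 and TTTGGCGC at bases 289 to 296, and Cdt1 held 1, TTTGGCGC at bases 283 to 290. Tk1, the gene that fell, held 0. An E2F-type match was found in 11 of the 35 windows of the measured genes (31.4%), beside 744 of all 32851 windows (2.26%) and 1 of 35 windows of mitosis genes. The 11 genes were Cdc6, Cdt1, Lig1, Mcm3, Mcm5, Mcm6, Mcm7, Orc1, Pola1, Pold1 and Rfc3. All windows together cover 27025 genes, beyond the 8251 measured here. Among measured genes above the low band with a window, 158 held a match and 2432 did not. Of the listed genes above it, 8 did and 12 did not. The CCAAT box was found in 19 of the 35 windows (54.3%, against 37.4% of all), and TTTGAA, the core of an element of mitotic promoters, in 3 (8.57%, against 17.9% of all and 27 of the 35 mitosis windows).

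The levels were then read against the motif, a split made after the values had been seen and therefore not tested. Of the genes above the low band, 8 held an E2F-type match, and all 8 had a higher mean than GCP in pretumor and in tumor samples, with median differences of 0.63 and 0.51. The 12 matched genes without one had medians of 0.01 and 0.14, and 6 and 7 of them were higher. Of the 8, Cdc6, Cdt1, Mcm3, Mcm5 and Mcm7 are licensing genes, and none of the 12 is. The other licensing genes above the low band, Mcm4 and Gmnn, had no window. The split therefore largely repeats the licensing step, and motif and step were not separated. Among all genes above the low band with a window, the 158 with a match had medians of 0.01 and 0.07, and 81 and 92 of them were higher; the 2432 without one had medians of -0.02 and -0.01. Of the 158, 5 were called higher in pretumor and 11 in tumor samples, and of the 2432, 87 and 83 were. A match is a description of these windows and not a measured binding site.

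The rest of the pathway was read from lists of other G1/S and replication genes. Of 84 such genes measured, 1 rose and 1 fell in pretumor samples, where 1.99% and 3.25% of all genes did. In tumor samples 0 rose and 1 fell, where 1.7% and 3.93% of all genes did. The gene that rose was Cdkn2c, an inhibitor of the G1 kinases Cdk4 and Cdk6, from 5.07 ± 0.33 in GCP to 5.91 ± 0.22 in pretumor samples (adjusted p = 0.0212), and it was at 5.42 ± 0.30 in tumor samples (adjusted p = 0.413 against GCP). Impdh1, an enzyme of guanine nucleotide synthesis, fell by 0.30 at both stages within the low band (adjusted p = 0.0123 and 0.0132). The median differences of the 84 genes were 0.04 and 0.12. Among them, 0 of 10 origin recognition and firing genes and 0 of 15 polymerase and fork accessory genes passed in either direction at either stage. Unadjusted p under 0.05 numbered 0 and 1 in pretumor and 1 and 3 in tumor samples. The 23 other G1/S regulators, Cdkn2c among them, spanned more, from -0.36 to 1.55 in pretumor and -0.66 to 1.98 in tumor samples. Of the 23, 2 and 7 had an unadjusted p under 0.05, beside 1486 and 1484 of all 8251 genes. In pretumor samples 3 lay wholly higher than GCP and 0 wholly lower, where 5.49% and 6.58% of all genes did. In tumor samples 3 and 1 did, where the shares over all genes were 3.81% and 5.72%. Above the low band, which holds 14 of the 23, these shares were 9.42% and 10.4% in pretumor and 6.23% and 9.23% in tumor samples.

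Mitosis genes did not rise with the licensing genes in pretumor samples. Of 39 measured, 0 rose and 4 fell: Ccnb2, a mitotic cyclin, from 10.00 ± 0.10 to 9.39 ± 0.27 (adjusted p = 0.0189), Cdc25c, the phosphatase that starts mitosis, from 7.52 ± 0.14 to 6.94 ± 0.15 (adjusted p = 0.00935), Cdk1, the mitotic kinase, from 5.37 ± 0.11 to 5.07 ± 0.11 (adjusted p = 0.0473), and Stmn1, a microtubule regulator, by 0.15 (adjusted p = 0.0374). In tumor samples 1 rose, Smc2, a condensin subunit, by 0.93 (adjusted p = 0.0146), and 1 fell, Stmn1, by 0.37 (adjusted p = 0.000102). Over all genes 1.99% rose and 3.25% fell in pretumor samples, and 1.7% rose and 3.93% fell in tumor samples. Above the low band, which holds 34 of the 39, these shares were 3.61% and 5.42%, and 3.65% and 6.78%. Of the mitosis genes, 1 lay wholly higher and 4 wholly lower than GCP in pretumor samples. There 5.49% and 6.58% of all genes did, or 9.42% and 10.4% of those above the low band. In tumor samples 1 lay wholly higher and 3 wholly lower, where 3.81% and 5.72% of all genes did, or 6.23% and 9.23% of those above the low band. The medians of the mitosis genes were -0.06 and -0.0046, beside 0.12 and 0.16 for the 36 replication genes. Whether the lists differ was not tested.

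**Figure D4:**
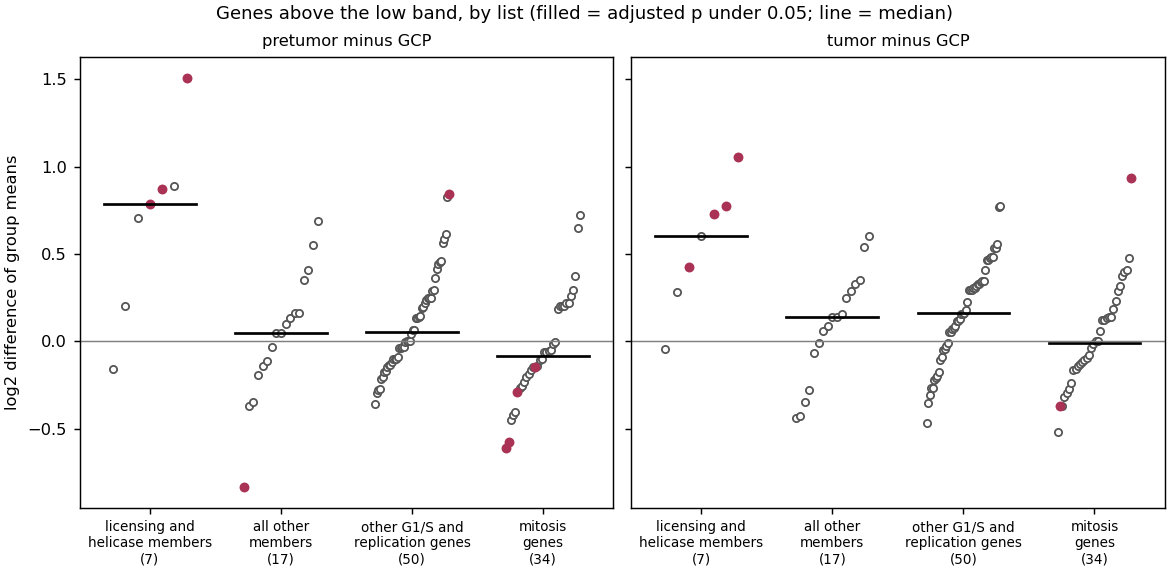
Log2 difference from GCP (vertical axis) of each gene above the low band, in pretumor (left) and tumor samples (right), for 7 licensing and helicase genes, the other 17 genes of the list, 50 other G1/S and replication genes and 34 mitosis genes; lines are medians and filled points passed the test. The licensing medians are 0.78 and 0.60, and the 4 filled mitosis points in pretumor samples lie below 0.

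Some markers of other cell types moved with the stages, beside the values above. Over all genes 1.99% rose and 3.25% fell in pretumor samples, and 1.7% and 3.93% in tumor samples. The low band held 11 of 15 microglia, 3 of 10 astrocyte, 4 of 11 oligodendrocyte, 5 of 10 granule neuron and 2 of 9 choroid plexus markers. It also held 9 of 12 endothelium, 7 of 12 Purkinje cell and 1 of 3 blood markers. Summed over a list on the linear scale, where a few bright genes weigh most, the 15 microglia and macrophage markers ran from 161 to 389 in GCP, 819 to 1369 in pretumor and 642 to 1909 in tumor samples, with 2 of 15 up at each later stage. The 10 astrocyte and Bergmann glia markers ran from 11532 to 15222, 2065 to 3418 and 829 to 2430, with 1 up and 1 down in pretumor and 6 down in tumor samples. The 11 oligodendrocyte markers were highest in pretumor samples, at 787 to 1588 against 278 to 417 in GCP and 161 to 308 in tumor samples (5 of 11 up in pretumor, 1 down in tumor samples). The 10 granule neuron markers ran from 17536 to 18932, 11806 to 15347 and 7858 to 13226, with 3 down at each stage. The 9 choroid plexus and meninges markers ran from 1063 to 4214, 5730 to 15088 and 68.4 to 1322, with 2 up and 1 down in pretumor and 1 down in tumor samples. The 12 endothelium and pericyte markers ran from 134 to 172, 81.1 to 110 and 57.4 to 83.4, with 4 down in pretumor and 6 down in tumor samples. The 12 Purkinje cell and interneuron markers ran from 114 to 213, 86.0 to 153 and 67.4 to 116, with 3 down at each stage. The 3 blood markers ran from 1919 to 4371, 743 to 3414 and 12.9 to 387, with 2 down in tumor samples. Of the defining markers, Cx3cr1 of microglia stayed in the low band, as did the group means of Gfap of astrocytes, which reached 4.22 in tumor 2. The part of these cells in the levels of Cdc6, Mcm3, Mcm4, Cdt1 and Tk1 was not tested.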

How the data were processed

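Each of 14 samples was measured on 1 array. The authors deposited 1 linear intensity for each of 12488 probe sets; their summary and normalization method was not given in the sources used here. Array medians differed by at most 0.094 log2 units, under a limit of 0.2, so no normalization was added. The 66 control probe sets were set aside, values were floored at the 10th percentile (2.45) and taken to log2, and 12422 probe sets were fitted with limma 3.58.1 in R 4.3.3 (3 group means, 11 residual and 0.83 prior degrees of freedom). P-values are two-sided and adjusted by Benjamini-Hochberg over these 12422; a gene was called under 0.05. The fit was also run on simulated data, with noise drawn independently for each probe set and array. Those data held no GCP pairs and no shared axis, so they do not bear on how the calls depend on these. Symbols came from the array's annotation (10833 probe sets with 1 symbol, 396 with several, 1193 with none), and all 36 were found in a reference table. Arrays have no read depth; their number limits the precision. Called genes and, where a step had none called, its gene with the highest mean are given on every array (Chaf1b, in the low band, by range). From the other lists at most 3 called genes a comparison are named; Stmn1 in pretumor samples was added after its values were seen. The genes and lists were chosen with earlier results of these data known. The reported fit did not pair arrays by replicate number, and whether these numbers pair arrays was not settled. Deviations of same-numbered arrays correlated from -0.30 to 0.55, above 0.1 in 5 of 13 pairs. For GCP with pretumor, numbers 1 to 4, they were 0.34, 0.31, 0.55 and -0.24. Arrays with different numbers were not compared in this way. Alternatives covered low values, normalization, samples fitted, blocking, GCP pairs, probe sets and each array left out. Pretumor or tumor arrays that resembled each other were not averaged or left out together.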

Additional observations from a re-analysis of the deposited data

Results flagged for a closer look

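In 72 sets of values (24 genes in 3 groups), 4 held an array far from the rest of its group by Dixon's test; chance gives about 1 in 20. Cdc6 was at 7.61 in tumor 1, against 8.01 to 8.07 in the other tumor arrays. Gmnn was at 7.00 in pretumor 3, against 6.09 to 6.32, and at 7.22 in tumor 2, against 6.21 to 6.48. Rfc3 was at 4.68 in pretumor 3, against 3.86 to 4.05.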

How the results depend on the processing

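The median differences of the 36 genes, 0.12 and 0.16 against GCP, are smaller than the spread between arrays (0.23), so that spread is no measure of their stability. They were 0.01 and 0.03 with values floored at 16, 0.04 and 0.10 with 16 added to every value, and 0.20 and 0.24 with GCP 1 and GCP 2 left out. Left-out arrays, 1 at a time, gave medians of 0.08 to 0.15, 0.14 to 0.22 and -0.07 to 0.06 for the comparisons pretumor with GCP, tumor with GCP, and tumor with pretumor, in that order. Genes called higher then numbered 1 to 4, 1 to 4 and 0, and genes called lower 0 to 1, 0 and 0. Probe sets called numbered 331 to 624, 338 to 709 and 70 to 148, against 541, 571 and 124 as reported.

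For pretumor against GCP, 1 gene (Cdc6) rose and 0 fell with the replicate block, with GCP 1 averaged with GCP 2 and GCP 3 with GCP 4, and with GCP 3 and GCP 4 left out; 0 fell with GCP 1 and GCP 2 left out and with pretumor 3 and tumor 2 left out. For tumor against GCP, 2 rose with values floored at 16, with quantile normalization, with arrays centred on brighter probe sets and with pretumor 3 and tumor 2 left out. There, 1 rose with 2 groups fitted alone, with the replicate block and with GCP pairs averaged, and 0 rose with GCP 3 and GCP 4 left out. Probe sets called were 194, 232 and 32 with values floored at 16, 168, 198 and 69 with GCP pairs averaged, 298, 310 and 70 without GCP 1 and GCP 2, and 203, 215 and 76 without GCP 3 and GCP 4. They were 335 and 50 in tumor against GCP and tumor against pretumor with 2 groups fitted alone, and 76 in the latter with the replicate block. The 3 pairwise omissions were chosen after seeing the data. In tumor against pretumor, Mcm4, at -0.0083 as reported and not called, turned to 0.037 without pretumor 2, 0.033 without pretumor 3, 0.0013 without pretumor 5, 0.0021 without tumor 2, 0.078 without tumor 3 (its lowest value being -0.076 without tumor 4) and 0.043 with pretumor 3 and tumor 2 left out. The causes were not tested, beyond the fewer arrays or probe sets in some alternatives. A change in the 12 low-band genes can go unseen, and 4 or 5 arrays a group leave 95% intervals of up to 0.86 log2 units on either side (Mcm5, against GCP).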
